A study of Mus musculus with 6 samples.

Results

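The genes described here are 10 genes of the NF-kB pathway: the 5 subunit genes Nfkb1, Nfkb2, Rela, Relb and Rel, the feedback inhibitors Nfkbia and Tnfaip3, and the target genes Icam1, Tnf and Il1b. They were taken by symbol from a listed set, and all 10 were found among the 55401 Ensembl identifiers of the count table. NF-kB proteins are transcription factors that bind DNA as dimers of these subunits. In resting cells the dimers are held in the cytoplasm by inhibitors such as the product of Nfkbia, and signals from receptors for TNF, IL-1 or microbial products lead an IkB kinase complex to mark that inhibitor for destruction. The freed dimers switch on inflammatory genes together with their own inhibitors, which closes a feedback loop, and much of this control acts on proteins and is not seen in RNA levels.

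RNA-seq was made from 6 mouse libraries. Their titles give set A and set B with 3 replicates each, written here as A1 to A3 and B1 to B3. All came from WT mice of a study of atopic dermatitis. The disease was induced with MC903, a vitamin D analogue that was painted on the ears daily (2 nmol in 10 µL of ethanol, day 0 to day 6), and control mice had ethanol alone. The labels used here do not say which set had MC903, so differences are given as B over A. The sort took live CD45+ cells without lineage markers that carried CD49b and FcεRIα or IgE, which is the gate for basophils. The labels call the tissue blood while the design text speaks of ear skin, and they give neither the age of the mice nor whether each library stands for its own animal. The p-values therefore reflect the spread among 6 libraries, part of which may be technical.

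Total counts ran from 46137963 to 63956911 per library. Genes with a count numbered 9242, 9845 and 11281 in A1, A2 and A3 and 11141, 12176 and 14066 in B1, B2 and B3. A1 and A2 thus had the fewest, and the part of this in the levels below was not tested. Several listed markers of the labelled cell type were near 0 in set A. Fcer1a, which encodes the IgE-binding receptor chain named in the sort gate, had 4, 0 and 0 counts in A1, A2 and A3. It had 10736, 5584 and 2681 in B1, B2 and B3. Mcpt8, Prss34, Cpa3 and Cd200r3 were likewise under 2 CPM in each library of A and above 10 CPM in each of B. The other markers in the list of 10 were less clear: Hdc was at 38.0 to 267 CPM in A and 359 to 685 CPM in B, Gata2 averaged 53.9 CPM in A and 22.9 CPM in B, Il3ra 14.6 and 3.11 CPM, and Ms4a2 and Itga2 were at 0 in some libraries. The summed level of the 10 basophil markers, carried in B largely by Mcpt8, Prss34 and Hdc, was 39.7 to 386 CPM in A and 1459 to 3209 CPM in B, where CPM is a count scaled by its library's total. Markers of other leukocytes were present in both sets. The 12 neutrophil markers summed to 2401, 7641 and 9830 CPM in A1, A2 and A3 and to 23441, 12572 and 13025 CPM in B1, B2 and B3, with Ly6g at 0 in all 6 libraries. The 12 monocyte and macrophage markers summed to 37402 to 44001 CPM in A and 25919 to 35745 CPM in B, and the 8 B cell markers to 3287 to 5188 CPM in A and 3687 to 5002 CPM in B. Levels below are therefore those of mixed leukocyte RNA, in which fewer cells of a type and less RNA per cell cannot be told apart.

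NF-kB dimers recognise a short DNA element, and several of these genes carry such elements near their own start sites. RefSeq start sites on GRCm38.p6 gave 11 windows of 250 bases upstream for 8 of the 10 genes, all but Nfkb1 and Relb. The 10-base NF-kB consensus, searched on both strands, was found in 6 of these windows and in 7.25% of 32851 RefSeq windows of the same length. The 6 belonged to 4 of the 8 genes, Nfkbia, Tnfaip3, Rel and Nfkb2, the last with several windows. Icam1, Il1b, Rela and Tnf had no match, and neither had another window of Tnfaip3. The search took a fixed pattern in 250 bases, so the lack of a match does not show that a gene has no NF-kB site. The genes were listed as part of the NF-kB pathway, so their share is no test of enrichment. The windows of Nfkbia (chr12:55492648-55492897 on the minus strand), Tnfaip3 (chr10:19015411-19015660 on the minus strand), Rel (chr11:23770970-23771219 on the minus strand) and Nfkb2 (chr19:46304487-46304736 on the plus strand) are shown because these 4 genes hold the element. Each is written 5′ to 3′ in the direction of the gene and ends at the base before the start site, with matches to the consensus in capitals.
Nfkbia: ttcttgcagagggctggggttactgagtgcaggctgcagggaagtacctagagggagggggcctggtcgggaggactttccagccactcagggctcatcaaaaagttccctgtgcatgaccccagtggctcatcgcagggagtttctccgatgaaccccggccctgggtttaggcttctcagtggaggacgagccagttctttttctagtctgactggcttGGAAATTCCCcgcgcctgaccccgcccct
Tnfaip3: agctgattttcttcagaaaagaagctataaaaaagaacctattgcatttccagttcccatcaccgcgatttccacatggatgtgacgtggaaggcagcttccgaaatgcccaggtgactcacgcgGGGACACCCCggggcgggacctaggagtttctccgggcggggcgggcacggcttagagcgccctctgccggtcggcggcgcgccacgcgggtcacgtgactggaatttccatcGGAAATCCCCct
Rel: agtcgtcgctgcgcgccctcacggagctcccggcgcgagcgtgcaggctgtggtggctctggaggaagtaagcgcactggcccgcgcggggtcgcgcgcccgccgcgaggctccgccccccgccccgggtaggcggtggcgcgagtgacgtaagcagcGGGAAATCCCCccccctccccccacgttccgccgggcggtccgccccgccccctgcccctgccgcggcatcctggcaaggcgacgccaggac
Nfkb2: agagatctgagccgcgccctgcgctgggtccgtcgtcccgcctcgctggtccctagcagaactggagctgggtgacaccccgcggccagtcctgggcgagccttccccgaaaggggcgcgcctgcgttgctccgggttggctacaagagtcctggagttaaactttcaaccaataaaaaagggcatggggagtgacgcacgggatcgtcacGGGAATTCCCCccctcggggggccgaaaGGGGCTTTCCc
A match describes the letters only, and no binding was measured.

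No difference between the sets was called for any of the 10 genes. All 10 passed the filter on low counts, and 0 of 10 passed edgeR's quasi-likelihood test at an adjusted p under 0.05, where 2 of 9196 genes passed in all (0.0217%). At an unadjusted p under 0.05 the number was also 0 of 10, against 6.36% of all genes tested. DESeq2 called 0 of the 8 for which it gave an adjusted p. Of all 9196 genes tested, with or without an adjusted p, it called 6.47%. It gave no p, unadjusted or adjusted, for Rela and Tnfaip3. Limma-voom called 0 of the 10, with 1.9% of all genes called. In 0 of the 10 did the values of one set lie all above those of the other, which was the case for 14.1% of all genes tested. The fitted values were above 0 for 4 genes and below 0 for 6, with a median log2 fold change of -0.83 beside -0.06 over all genes tested. The standard errors, from 0.47 for Nfkbia to 2.40 for Tnfaip3 on the log2 scale, were wide, so the absence of a call does not show that levels were alike.

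**Figure D1:**
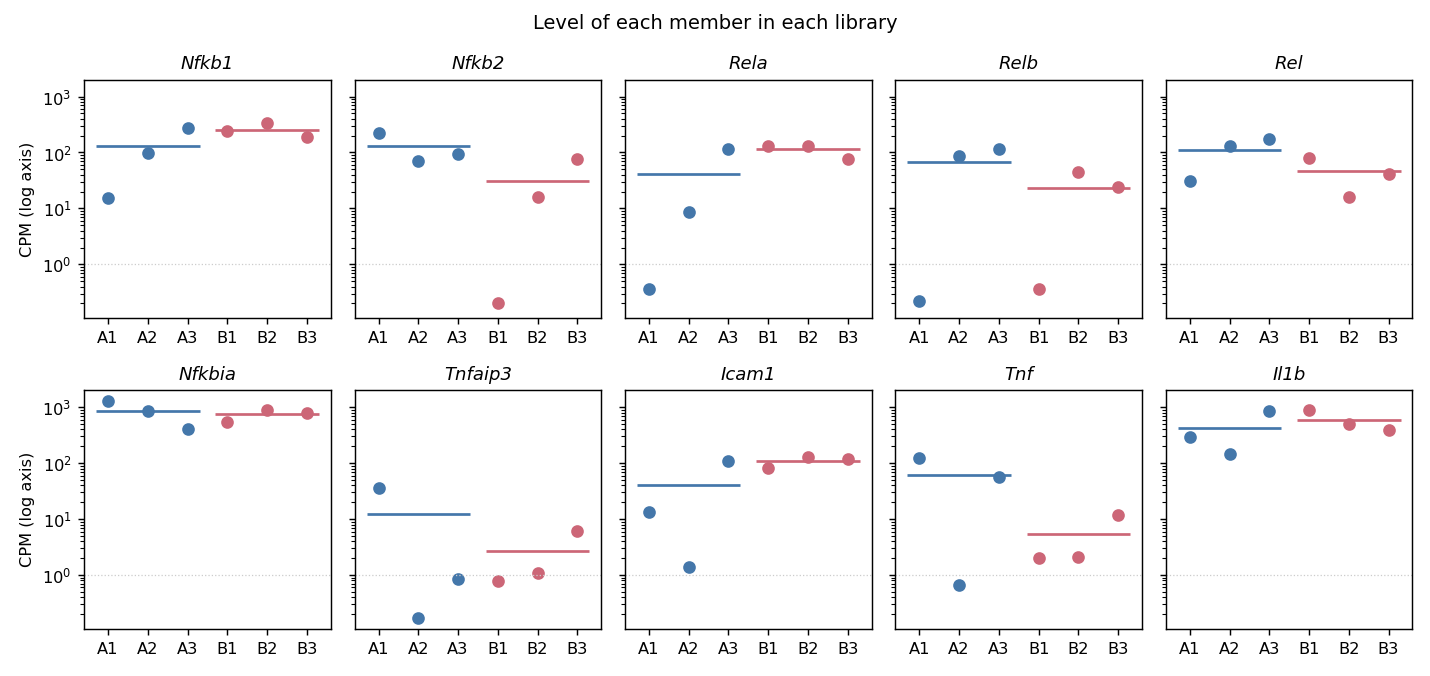
Level of each of the 10 genes in CPM (log axis) in libraries A1 to A3 (blue) and B1 to B3 (red), with 1 point per library and a line at each set's mean; the dotted line marks 1 CPM. Nfkbia and Il1b are above 100 CPM in every library, while Tnfaip3 is above 10 CPM in A1 alone.

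Nfkb1 encodes a precursor that is cut to a DNA-binding subunit with no activation domain of its own, the usual partner of RelA. Its level was 15.5, 98.7 and 277 CPM in A1, A2 and A3 and 247, 332 and 188 CPM in B1, B2 and B3. The lowest 2 values were those of A1 and A2, and A3 lay within the range of set B. The log2 fold change was 0.93 (SE 0.90, 95% interval -1.23 to 3.09, adjusted p = 1.00 by edgeR), with 0.41 without A1 and 2.06 without A3.

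Rela encodes the main activating subunit of the classical pathway. It was at 0.363, 8.66 and 117 CPM in A1, A2 and A3 and at 132, 130 and 77.8 CPM in B1, B2 and B3. As for Nfkb1, A1 and A2 were the lowest libraries and A3 lay inside the range of B. The log2 fold change was 1.42 (SE 1.71, interval -2.69 to 5.52, adjusted p = 1.00 by edgeR), and it ran from 0.84 without A1 to 4.56 without A3 (unadjusted p = 0.0482, adjusted p = 0.440 in the latter). Neutrophil marker sums were also lowest in A1 and A2 (2401 and 7641 CPM), as were basophil marker sums (39.7 and 164 CPM). In A3 the sums (9830 and 386 CPM) were below every library of B, while Rela and Nfkb1 were within the range of B. The part of these cell types in the levels of Rela and Nfkb1 was not tested.

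Rel encodes c-Rel, an activating subunit used mostly by blood cells. Its values were 30.5, 131 and 171 CPM in A1, A2 and A3 and 81.0, 15.8 and 40.7 CPM in B1, B2 and B3, so that A2 and A3 were the highest libraries and A1 lay among those of B. The log2 fold change was -1.32 (SE 1.05, interval -3.85 to 1.21, adjusted p = 1.00 by edgeR), with -0.89 without B2 and -2.03 without B1. Rel and Nfkb1 were the subunit genes with at least 10 CPM in all 6 libraries.

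Nfkb2 and Relb encode the subunits of the alternative pathway, which receptors such as Ltbr, CD40 and the BAFF receptor use. Nfkb2 was at 225, 71.8 and 93.1 CPM in A1, A2 and A3 and at 0.201, 16.1 and 77.2 CPM in B1, B2 and B3. It was highest in A1 and close to absent in B1, with B3 between the values of A2 and A3. The log2 fold change was -2.17 (SE 1.73, interval -6.33 to 1.99, adjusted p = 1.00 by edgeR), with -1.44 without A1 and -4.11 without B3. A noncoding gene on the opposite strand, AC114539.1, overlaps Nfkb2 and had 0 to 2121 counts per library. Since the use of strand in counting is not given, reads in the shared stretch cannot be told apart.

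Relb was at 0.218, 87.96 and 117 CPM in A1, A2 and A3 and at 0.362, 44.2 and 24.5 CPM in B1, B2 and B3. It was near 0 in 1 library of each set, A1 and B1, and higher in A2 and A3 than in any library of B. The log2 fold change was -1.62 (SE 2.25, interval -7.02 to 3.78, adjusted p = 1.00 by edgeR), with -1.03 without A3 and -2.47 without B2. In A1 the 2 genes of the alternative pathway thus stood at opposite ends, with Nfkb2 at its highest and Relb at its lowest.

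To set the subunits beside each other, each level was divided by the length of the gene's joined exons (GENCODE vM21), which gives CPM per kilobase. Summed over the 5 subunits this was 54.6 to 134 CPM per kilobase. Nfkb2 and Relb together made up 90.0%, 57.3% and 37.6% of that sum in A1, A2 and A3 and 0.184%, 17.1% and 33.3% in B1, B2 and B3. The shares of the sets did not overlap, and A3 and B3 were close to each other. Of single genes tested, 14.1% had no overlap in CPM, which is not the rate for shares of this kind. Some subunits were near 0: Rela and Relb had 20 and 12 counts in A1, and Nfkb2 and Relb had 10 and 18 counts in B1. Rela was the leading subunit in A3 and in all 3 libraries of B, with 28.3% in A3 and 36.5% to 57.7% in B, whereas Nfkb2 led in A1 with 89.8% and Relb in A2 with 33.9%. This split was drawn up with the values known and was given no test.

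**Figure D2:**
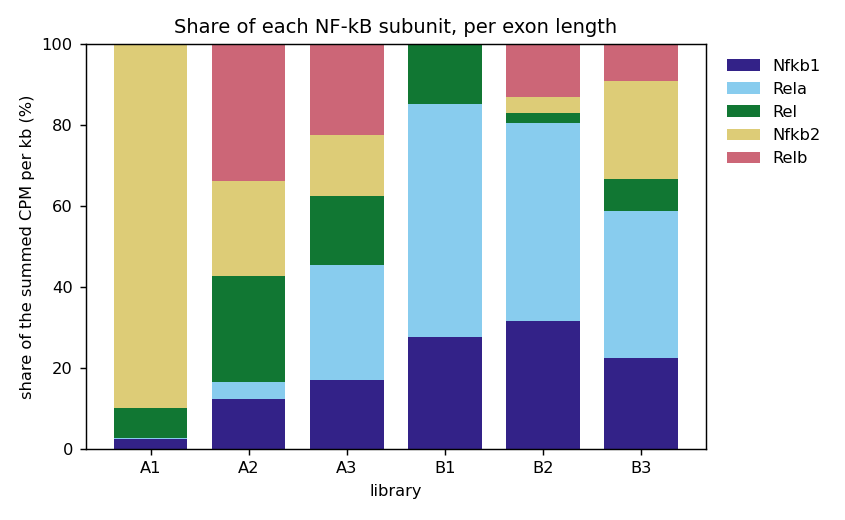
Share of each of the 5 NF-kB subunit genes in their summed CPM per kilobase of exon (y axis, %) in each library (x axis). Nfkb2 makes up 89.8% of A1, and Rela is the largest share in A3, B1, B2 and B3.

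Nfkbia, which encodes the inhibitor IkB alpha and is itself switched on by NF-kB, was the most even of the 10 genes. It was at 1278, 859 and 406 CPM in A1, A2 and A3 and at 540, 909 and 779 CPM in B1, B2 and B3. Its highest library was 3.14 times its lowest, both in set A, and the range of B lay inside that of A. The log2 fold change was -0.33 (SE 0.47, interval -1.47 to 0.80, adjusted p = 1.00 by edgeR). The direction turned without A1, to 0.15 (adjusted p = 1.00), and by limma-voom, to 0.03 (adjusted p = 0.988).

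Tnfaip3 encodes a ubiquitin-editing enzyme that shuts off signals from the TNF receptor and Toll-like receptors to NF-kB. It was at 35.7, 0.170 and 0.867 CPM in A1, A2 and A3 and at 0.784, 1.10 and 6.25 CPM in B1, B2 and B3. In raw counts these were 1969, 9 and 40 in A and 39, 65 and 400 in B, beside a floor of 3 counts. A1 alone held most of the signal, and the other 5 libraries were all under 10 CPM. The log2 fold change of -2.35 (SE 2.40, interval -8.13 to 3.43, adjusted p = 1.00 by edgeR) became 2.38 without A1 (adjusted p = 0.939). Nfkbia and Tnfaip3 are both feedback inhibitors and both were highest in A1, yet the first was high in every library and the second in 1.

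Icam1 encodes an adhesion molecule that binds leukocyte integrins and is a classical target on endothelium and leukocytes. Its levels were 13.4, 1.42 and 110 CPM in A1, A2 and A3 and 83.5, 132 and 119 CPM in B1, B2 and B3. It was high in A3 and all of B and low in A1 and A2, the same 2 libraries that were lowest for Nfkb1 and Rela. The log2 fold change was 1.40 (SE 1.47, interval -2.13 to 4.92, adjusted p = 1.00 by edgeR), with 0.83 without A2 and 3.71 without A3. Pecam1, an endothelial marker that leukocytes and platelets also express, was at 0.412 to 58.6 CPM in A and 57.7 to 215 CPM in B, while Cdh5, which defines endothelium, had 0 to 4 counts per library.

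Tnf encodes the cytokine TNF, both a product of NF-kB and a trigger of it. It was at 125, 0.662 and 56.3 CPM in A1, A2 and A3 and at 2.03, 2.13 and 12.0 CPM in B1, B2 and B3. A1 and A3 stood above all of B, and A2 below it. Its fold change had the smallest unadjusted p of the 10 genes (0.143), at -3.61 on the log2 scale (SE 2.17, interval -8.83 to 1.61, adjusted p = 1.00 by edgeR), and by DESeq2 the adjusted p was 0.244. The fold change was -2.39 without A1, -4.97 without B3 and -1.89 by limma-voom. The monocyte and macrophage marker sum was highest in A1 but lower in A3 (37402 CPM) than in A2 (37944 CPM). Within A the NK cell marker sum had the same order as Tnf (2444, 895 and 1965 CPM in A1, A2 and A3). Within B it was highest in B1 (1551 CPM), where Tnf was at its lowest of B. The part of these cell types in the level of Tnf was not tested.

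Il1b encodes the precursor of IL-1 beta, which monocytes and neutrophils make in quantity. It was at 288, 149 and 859 CPM in A1, A2 and A3 and at 885, 509 and 391 CPM in B1, B2 and B3. A1 and A2 were again the lowest, and A3 lay within the range of B. The log2 fold change was 0.40 (SE 0.64, interval -1.15 to 1.94, adjusted p = 1.00 by edgeR), and it fell to -0.02 without B1 (adjusted p = 1.00). The neutrophil and basophil marker sums were lowest in A1 and A2 here too. In A3 these sums were below every library of B, while Il1b was within the range of B. Their part was not tested.

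**Figure D3:**
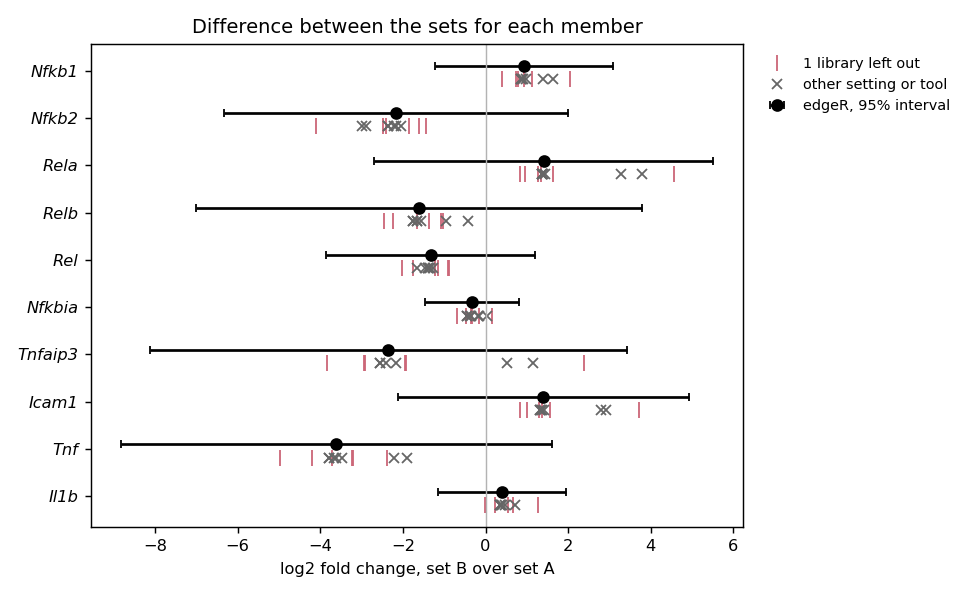
Log2 fold change of set B over set A for each of the 10 genes: black points are edgeR's estimates with 95% intervals, red ticks leave out 1 library each, and grey crosses are other settings or tools. All 10 intervals cross 0, and the estimates of Nfkbia, Tnfaip3 and Il1b fall on both sides of it.

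Per kilobase of exon, Nfkbia stood first (494 ± 190 CPM per kilobase, SD, n = 6 libraries of both sets) and Il1b second (269 ± 158), with Nfkbia higher in 4 of 6 libraries, so that their order was not settled. Il1b lay above Rela (25.3 ± 19.5) in all 6 libraries with no overlap of their ranges. The next 7 genes, Rela, Tnf, Nfkb2, Icam1, Nfkb1, Relb and Rel, had means from 25.3 down to 10.5 CPM per kilobase, and each pair of neighbours in that order had overlapping ranges. The order was not the same within the sets: Tnf averaged 37.1 CPM per kilobase in A and 3.29 in B, the highest and the lowest of these 7 genes, and Rela averaged 13.7 in A and 36.9 in B. Tnfaip3 came last (1.04 ± 1.94) and was under Rel in 5 of 6 libraries.

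The libraries differed in how many of the genes they left near 0. Of the 60 values, 8 were under 1 CPM, and these fell in 5 of the 10 genes: 3 in Tnfaip3, 2 in Relb and 1 each in Nfkb2, Rela and Tnf. B1 held 3 of them, A1 and A2 held 2 each, A3 held 1, and B2 and B3 held 0. Such gaps were common at these levels, since 28.0% of library values were under 1 CPM among the 5285 tested genes with a mean of 10 to 100 CPM, against 52.8% among the 2113 genes with a mean under 10 CPM and 3.68% among the 1273 genes with a mean of 100 to 300 CPM. Nfkb2, Rela, Relb, Rel, Icam1 and Tnf had means of 10 to 100 CPM, Tnfaip3 a mean under 10 CPM and Nfkb1 a mean of 100 to 300 CPM.

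Genes with the profile most like that of Il1b and of Tnfaip3 were named by the smallest root mean square difference of log2(CPM + 1), centred on each gene's own mean, over the 6 libraries. For Il1b they were Gpi1 (0.23), Epc1 (0.23) and Brd9 (0.29). For Tnfaip3 the nearest were Gm26789 (0.34), Gm14305 (0.38) and Grtp1 (0.39), each with its highest value in A1 and a mean of 3.51 to 5.06 CPM.

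The wider pathway was read from 6 lists with 111 genes, of which 91 passed the filter on low counts. By edgeR 0 of the 91 were called in either direction, beside 0.0217% of all genes, and at an unadjusted p under 0.05 there were 4 higher in B and 1 lower (6.36% of all genes in both directions). DESeq2 gave an adjusted p for 85 of the 91 and called 8 higher and 2 lower. Of all genes tested, with or without an adjusted p, it called 5.34% and 1.13%. Limma-voom called 1 higher, the adaptor gene Traf5 (adjusted p = 0.0497), and 0 lower (1.84% and 0.0652% of all genes). In 14 of the 91 (15.4%) the sets did not overlap, beside 14.1% of all genes tested.

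**Figure D4:**
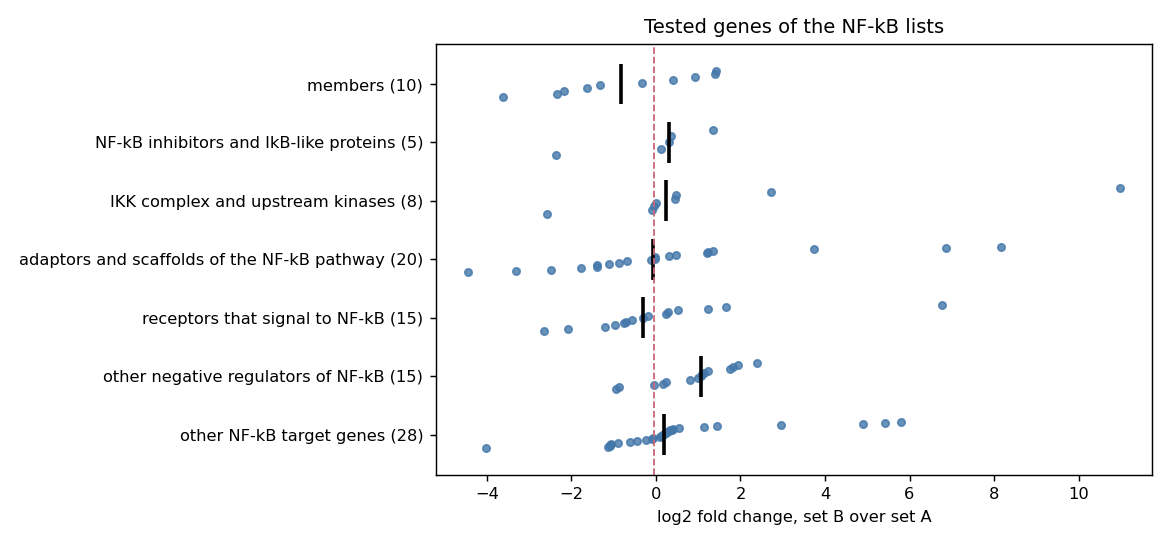
Log2 fold change of set B over set A by edgeR for the tested genes of each list (number in brackets), with 1 point per gene, a black bar at the list's median and a dashed line at the median of all 9196 genes tested. List medians run from -0.83 for the 10 genes described above to 1.08 for the other negative regulators.

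Among the other IkB proteins, 5 of 5 were tested, 0 were called, and the median log2 fold change was 0.31. The 2 most abundant were Nfkbib, an IkB paralog of Nfkbia (64.8 ± 61.9 CPM in A, 87.9 ± 83.6 in B, SD, n = 3), and Nfkbid, a nuclear IkB-like protein (50.5 ± 57.0 in A, 65.5 ± 36.1 in B). Of the listed genes of the IkB kinase complex, the kinases upstream of it and their partner proteins, 8 of 11 were tested with a median of 0.23. Ikbkb, the IkB kinase subunit of the classical pathway, averaged 194 ± 97.0 CPM in A and 199 ± 164 CPM in B, and Map3k8, a kinase bound by the Nfkb1 precursor, averaged 84.6 ± 55.5 CPM in A and 123 ± 79.0 CPM in B. Chuk, the other catalytic subunit, had 4, 0 and 0 counts in A and was at 2.15, 130 and 54.1 CPM in B1, B2 and B3. It passed by DESeq2 (adjusted p = 8.4e-06) and not by edgeR (adjusted p = 0.508).

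Of 22 adaptors and scaffolds 20 were tested, with a median of -0.08. Myd88, the adaptor of Toll-like and IL-1 receptors, averaged 315 ± 132 CPM in A and 410 ± 104 CPM in B, and Bcl10, a scaffold downstream of immune receptors, at 68.3 ± 85.9 and 162 ± 114 (SD, n = 3). Of the TRAF adaptors, Traf2 (log2 fold change -1.39) and Traf6 (1.22) had overlapping sets and were called by no tool. Traf1, itself an NF-kB target, was at 89.4, 211 and 125 CPM in A1, A2 and A3 and at 0.342, 0.372 and 19.4 CPM in B1, B2 and B3. Traf5 was at 0 to 0.0946 CPM in A and at 15.8, 7.46 and 19.3 CPM in B. Traf3, which holds the alternative pathway in check, was at 0 to 0.726 CPM in A and at 49.4, 40.1 and 11.4 CPM in B. DESeq2 called Traf1 lower (adjusted p = 0.0124) and Traf5 (adjusted p = 1.22e-05) and Traf3 (adjusted p = 0.0361) higher in B, and edgeR called none of the 3 (adjusted p = 0.835, 0.508 and 0.980).

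Of 19 receptors 15 were tested, with a median of -0.32. The TNF receptors Tnfrsf1b (302 ± 106 CPM in A, 138 ± 91.9 in B) and Tnfrsf1a (114 ± 64.6 in A, 154 ± 29.0 in B; SD, n = 3) were the most abundant, and neither was called. Il1r1 and Il1rl1, the signalling receptors for IL-1 and IL-33, had 0 counts in all 6 libraries. Tlr2, a receptor for bacterial lipoproteins, was called higher in B by DESeq2 alone (adjusted p = 0.0144, and 0.872 by edgeR).

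The other negative regulators had the highest median of the 6 lists, 1.08, with 12 of 15 fitted values above 0 and 0 called by edgeR. Over all genes 4414 of 9196 were above 0. Standard errors in this list ran from 0.19 for Dusp1 to 3.20 for N4bp1, and no test of the list was run. Dusp1, a phosphatase of stress-activated kinases, was at 692, 804 and 1107 CPM in A1, A2 and A3 and at 1615, 1842 and 1389.9 CPM in B1, B2 and B3. Every library of B was above every library of A (log2 fold change 0.81, SE 0.19, adjusted p = 0.508 by edgeR and 0.0263 by DESeq2). Il1r2, the decoy receptor for IL-1, was at 0.435, 80.5 and 28.1 CPM in A1, A2 and A3 and at 218, 279 and 107 CPM in B, without overlap and not called (log2 fold change 2.39, SE 1.48, adjusted p = 1.00 by edgeR). Tax1bp1, a partner of the Tnfaip3 protein, averaged 234 ± 148 CPM in A and 281 ± 21.4 CPM in B (SD, n = 3).

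Among 38 other target genes 28 were tested, with a median of 0.19. Junb, an AP-1 subunit, averaged 811 ± 80.7 CPM in A and 939 ± 406 CPM in B (SD, n = 3). Ccl5, a chemokine made by T and NK cells among others, was at 823, 668 and 564 CPM in A1, A2 and A3 and at 330, 375 and 338 CPM in B1, B2 and B3. Its log2 fold change was -1.10 (SE 0.26, adjusted p = 0.508 by edgeR and 0.000972 by DESeq2). The 10 T cell markers summed to 952 to 1238 CPM in A and 303 to 639 CPM in B, with Cd4 at 0 in all libraries. The 8 NK cell markers summed to 2444, 895 and 1965 CPM in A1, A2 and A3 and to 1551, 1001 and 990.2 CPM in B1, B2 and B3, so that the sets overlapped. The 7 platelet markers summed to 1054 to 1532 CPM in A and 582 to 955 CPM in B. The part of these cell types in the level of Ccl5 was not tested. Ebi3, a subunit of the cytokines IL-27 and IL-35, was at 85.2, 148 and 111 CPM in A and at 248, 341 and 416 CPM in B (log2 fold change 1.46, SE 0.40, adjusted p = 0.508 by edgeR and 0.0225 by DESeq2). Cxcl2, a neutrophil-attracting chemokine, was at 48.2, 103 and 9.73 CPM in A and at 1.37, 1.29 and 7.93 CPM in B, and no tool called it.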

How the data were processed

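The authors deposited 1 table of raw counts per Ensembl gene, not normalized, with 1 column per library. Per the labels' protocols the libraries were made with Smart-seq2 and read as pairs of 150 bases. The submitters' processing notes list cutadapt 1.9, HISAT2 2.2.1 and DESeq2 without their roles. The counting program, build, annotation, strand setting and treatment of shared reads were not stated. Smart-seq2 has no molecular identifiers, and a floor of 3 counts (0.0469 to 0.0650 CPM) covers counting error only.

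Symbols matched 55141 of 55401 identifiers. CPM is the count over the column total. The test was edgeR 4.0.16 in R 4.3.3 (filterByExpr, TMM, glmQLFit with robust=TRUE, glmQLFTest) on all 6 libraries without covariates, adjusted by Benjamini-Hochberg over 9196 genes at a threshold of 0.05. Standard errors are the log2 fold change over the root of F, with 95% intervals on the test's degrees of freedom. Scripts were tested on simulated data. Other settings were RLE, unscaled library size, testing unfiltered genes, a tighter filter (mean of 10 CPM and 10 counts in every library of a set), DESeq2 1.42.0, limma-voom 3.58.1 with quality weights, a replicate block, TMM-scaled CPM and each library left out. Exon lengths of GENCODE vM21 may differ from the authors' annotation.

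The 10 genes and the lists were chosen with earlier results of these data known. Named were the 10 genes and the 2 most abundant tested genes of each list. Others were named after their values were seen. The cell type lists were read as summed levels. Some results are not reported here.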

Additional observations from a re-analysis of the deposited data

How the results depend on the processing

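Over 13 other settings the count of called members of the 10 was 0 in each, with adjusted p from 0.244 to 1.00. At an unadjusted p under 0.05 there was 1 member by DESeq2 (Tnf), 1 without A replicate 2 (Tnf) and 1 without A replicate 3 (Rela). DESeq2 gave no unadjusted or adjusted p for Rela and Tnfaip3, and the tighter filter left out Tnfaip3. Of 129 refitted fold changes 123 kept their sign. The 6 that turned were Nfkbia by limma-voom (0.029) and without A replicate 1 (0.15), Tnfaip3 by limma-voom (0.52), with a replicate block (1.15) and without A replicate 1 (2.38), and Il1b without B replicate 1 (-0.018). Left-out values ran from -0.69 to 0.15 for Nfkbia, from -3.85 to 2.38 for Tnfaip3 and from -0.018 to 1.27 for Il1b. The cause was not tested.

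Of other pathway genes DESeq2 called 8 higher and 2 lower in B and limma-voom 1 higher, where edgeR called 0. Of all genes edgeR called 2 higher and 0 lower, DESeq2 491 and 104, limma-voom 169 and 6, and the replicate block 0 higher. With 1 library left out edgeR called 0 to 1 higher and 0 lower. The replicate numbers were not taken to pair libraries: the deviations of the 3 same-numbered pairs correlated at 0.028, -0.0241 and 0.0261. A1 was closest to B1, its own number, A2 also to B1, and A3 to B2. RLE moved the median log2 fold change of all genes by -0.10, limma-voom by 0.51 and the block by 0.31. TMM-scaled CPM moved every set mean of the 10 genes by less than its SD. Genes under 100 CPM had many values near 0, which limits what these libraries can resolve.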

Other observations

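Summed levels of cell type lists were also read, some of them given above. The 10 dendritic cell markers summed to 4353 to 6675 CPM in A and 3105 to 3518 CPM in B. Of these, 3 were at 10 CPM or more in every library of A and 4 in every library of B, while 1 was at 0 in all of A and 2 in all of B. The 8 NK cell markers summed to 895 to 2444 CPM in A and 990.2 to 1551 CPM in B, and the 7 platelet markers to 1054 to 1532 CPM and 582 to 955 CPM. Mast cell markers (5) summed to 0.151 to 117 CPM in A and 0.135 to 78.0 CPM in B. Kit and Mcpt4 were at 0 in all libraries, and 4 of the 5 were at 0 in all of B. Eosinophil markers (6) summed to 0.737 to 13.1 CPM in A and 2.37 to 70.2 CPM in B, with Epx and Prg2 at 0. Of the 9 skin markers, Krt5, Krt14, Krt1, Col1a1, Col1a2 and Pdgfra were at 0 in all libraries, and the sum, mostly of Pecam1 and Krt10, was 0.585 to 97.4 CPM in A and 57.7 to 259.9 CPM in B.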
